A study of Homo sapiens with 15 samples.

Results

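SPRY1, SPRY2, SPRY4, SPRED1, DUSP4, DUSP5, DUSP6, ETV1, ETV4 and ETV5 are genes that cells switch on when the ERK branch of growth factor signalling is active, and most of them restrain it. The 10 symbols were taken as the matching entries of a table of 25737 genes from U87MG, a human glioblastoma cell line, and all 10 were found and passed the filter on low values. The 15 libraries fell into 5 groups of 3. The GFP group was labelled as control cells given control lentivirus for 24 h, and the ID1, ID2, ID3 and ID4 groups as cells overexpressing the respective ID gene after 24 h of that lentivirus, so that the transduction was shared by every group. ID proteins are helix-loop-helix factors without a DNA-binding region that hold E proteins off DNA. Neither the vector promoters nor whether libraries came from separate cultures was given in the sources used here, so p-values measure the spread between these libraries, which may be technical.

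Receptor tyrosine kinases load RAS with GTP, and RAF, MEK and ERK kinases then pass the signal on. Sprouty proteins and SPRED1 dampen the pathway at or above RAF, and SPRED1 does so by bringing the RAS inhibitor neurofibromin to the membrane. Dual-specificity phosphatases remove the activating phosphates, DUSP6 from ERK in the cytoplasm and DUSP4 and DUSP5 in the nucleus. ETV1, ETV4 and ETV5 are the PEA3 group of ETS transcription factors. Their genes are kept down by the repressor CIC, which ERK signalling relieves, and their proteins are degraded through the COP1 ligase. Activity of ERK itself was not measured, and in bulk RNA fewer cells of a type and less RNA per cell cannot be told apart.

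Promoter windows, from 250 bases before to 50 after a transcription start in RefSeq on GRCh38.p14, were at hand for 6 of the 10 genes (SPRY1, SPRY2, SPRY4, SPRED1, DUSP6 and ETV1) and numbered 14. They were searched on both strands for the CIC octamer (TGAATGAA, TGAATGGA, TCAATGAA or TCAATGGA), which 3.77% of all 35116 windows hold. Of the 14 windows, 2 held it, the single one of DUSP6 and 1 of the 6 of ETV1. Both are printed because these genes carry much of the result that follows, with the octamer in capitals. The DUSP6 window, chr12:89352452-89352751 on the minus strand, has matches starting at -24 and 2, and the ETV1 window, chr7:13991376-13991675 on the minus strand, has 1 at -125, counting the start site as 1.
DUSP6: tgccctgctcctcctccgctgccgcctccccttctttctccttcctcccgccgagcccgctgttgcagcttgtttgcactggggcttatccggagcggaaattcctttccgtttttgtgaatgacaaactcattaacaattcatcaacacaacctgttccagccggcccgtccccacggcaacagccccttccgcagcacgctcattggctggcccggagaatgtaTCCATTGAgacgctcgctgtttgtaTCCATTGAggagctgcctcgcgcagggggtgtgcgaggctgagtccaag
ETV1: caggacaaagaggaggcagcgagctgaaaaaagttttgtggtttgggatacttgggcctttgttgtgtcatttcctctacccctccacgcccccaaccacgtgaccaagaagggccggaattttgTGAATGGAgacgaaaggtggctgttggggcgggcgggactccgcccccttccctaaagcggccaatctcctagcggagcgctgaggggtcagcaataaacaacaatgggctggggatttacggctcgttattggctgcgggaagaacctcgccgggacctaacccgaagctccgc
The core CCGGAA of ETS factor sites was in 17.2% of all windows and in 5 of the 14, from 3 genes. Among them was the printed ETV1 window, where it begins at -136. The E-box CAGCTG, a sequence that E proteins can bind, was in 17.9% of all windows and in 2 of the 14. Both of these windows are of ETV1 and overlap almost wholly, so their E-box is the same site, as is their ETS core. The E-box CAGGTG, in 20.6% of all windows, was in 0 of the 14. The cAMP response element TGACGTCA and the AP-1 site TGAGTCA were in 0 of the 14 as well, against 1.85% and 4.95% of all windows. A match is a run of letters and not a measured binding site.

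Depth was similar throughout, from 11089044 to 15148979 counts per library. The ID4 gene itself was at 0 to 0.166 counts per 1000000 counts of the library (CPM) in GFP and at 210 to 235 in the ID4 libraries, and ID3 was higher in the ID3 libraries (301 to 323) than in GFP (214 to 230). ID3 was also above GFP in the libraries labelled ID2 (268 to 319), whose range overlapped that of the ID3 libraries. For the others the counts went against the labels, since ID1 was lower in the libraries labelled ID1 (247 to 254) than in GFP (337 to 350) and ID2 was lower in those labelled ID2 (43.7 to 46.2) than in GFP (83.1 to 88.7). These falls were not particular to the matching label. The ID2 gene was also below GFP in the libraries labelled ID1 (31.6 to 36.8), ID3 (45.6 to 48.7) and ID4 (34.8 to 37.7). The ID1 gene was also below GFP in those labelled ID4 (260 to 299) and overlapped it in ID2 and ID3. The tags come from the 3′ end of a transcript, and whether the vectors carry the end that is counted was not given in the sources used here. A vector transcript that is not counted and a library that does not match its label therefore cannot be told apart for ID1 and ID2. The ID3 counts do not separate the libraries labelled ID3 from those labelled ID2, so they do not settle that label either. Only ID4 was high in the libraries of its own label and in no other group. "The ID1 libraries" below means the libraries labelled ID1, and likewise for ID2 and ID3. VIM and CD44 were abundant in every library, whereas the glial markers GFAP, S100B, SOX2, FABP7 and OLIG2 had at most 11 counts. The levels of SOX9 and NES, also on that list, differed between groups. SOX9, a glial and neural crest transcription factor, was at 20.5 to 22.9 CPM in GFP and at 6.35 to 6.47 in ID1, 2.70 to 4.37 in ID2, 5.98 to 8.11 in ID3 and 10.05 to 10.8 in ID4, all below GFP. NES, which encodes nestin, was at 22.04 to 25.9 CPM in GFP and lower without overlap in ID1 (16.6 to 20.5) and ID3 (18.2 to 21.2). The summed level of the 9 glioma line markers was 4114 to 4602 CPM in GFP and 4298 to 5312 in the ID groups. Of the leukocyte markers, PTPRC, CD3E and LYZ had at most 8 counts per library, while CD68 was at 49.04 to 56.3 CPM in GFP, 69.8 to 73.4 in ID2 and 50.2 to 66.1 in the other groups. The part of these markers in the results that follow was not tested.

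The common picture was a fall of SPRY2 and ETV1 in all 4 ID groups, a fall of DUSP6 and ETV5 in ID1, ID2 and ID3 that did not pass the test in ID4, and a rise of DUSP4 in ID4 alone. By the quasi-likelihood test of edgeR, with p adjusted after Benjamini and Hochberg over the 12870 genes tested, 4 of the 10 genes passed an adjusted p of 0.05 in ID1 against GFP, all lower. There 22.1% of all tested genes passed, 12.4% higher and 9.73% lower. In ID2, 5 were lower and 1 higher (35.1% of all genes passed, 18.5% higher and 16.7% lower). In ID3, 4 were lower and 1 higher (28.6% passed, 15.1% higher and 13.5% lower). In ID4, 2 were lower and 2 higher (21.6% passed, 12.1% higher and 9.51% lower). The median log2 fold change over the 10 genes was -0.49 in ID1, -0.49 in ID2, -0.37 in ID3 and -0.12 in ID4, beside a median of 0.00 over all tested genes in each comparison. The 4 comparisons share the 3 GFP libraries, so they are not independent of each other. For the mean of the 4 ID groups against GFP, 6 of the 10 passed, 5 lower and SPRED1 higher (32% of all genes passed, 16.8% higher and 15.2% lower), and for any difference over the 5 groups 6 passed (44.8%). Without overlap with the GFP libraries in CPM were 6 of the 10 genes in ID1 (37.1% of all tested genes), 6 in ID2 (42.3%), 6 in ID3 (40.6%) and 5 in ID4 (37.1%), so this is common in the table.

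**Figure D1:**
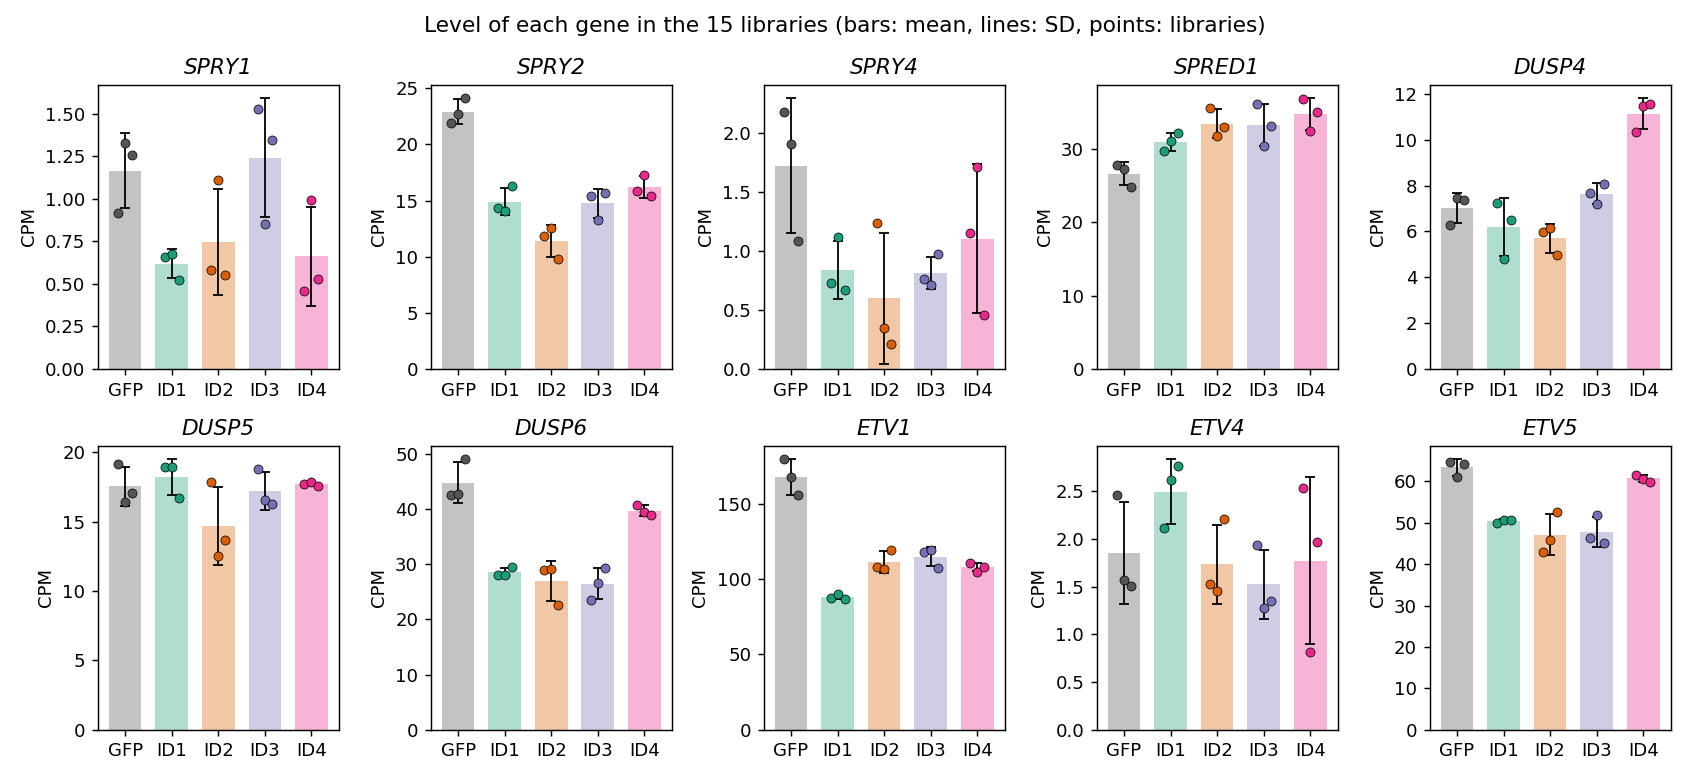
Level of each of the 10 genes in CPM (vertical axes, from 0) in the GFP, ID1, ID2, ID3 and ID4 groups. Points are the 3 libraries of a group, bars their mean and lines 1 SD. SPRY2 and ETV1 are highest in GFP, DUSP6 and ETV5 are low in ID1, ID2 and ID3, and DUSP4 is highest in ID4.

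SPRY2, a Sprouty inhibitor of receptor signalling, has its gene at 80910111 to 80915261 of chromosome 13 (GRCh37, as for all gene positions here). Its level in the GFP libraries was 21.9, 22.7 and 24.1 CPM. It was 14.3, 14.1 and 16.3 CPM in ID1, 11.9, 12.5 and 9.82 in ID2, 15.4, 13.2 and 15.6 in ID3 and 15.9, 17.3 and 15.4 in ID4. Every library of every ID group was below every GFP library, and ID2 was the lowest group. SPRY2 mRNA fell by 49.6% in ID2 (log2 fold change -0.99, standard error 0.10, adjusted p = 1.57e-07, edgeR), by 36.5% in ID3 (-0.65, adjusted p = 4.42e-05), by 35.7% in ID1 (-0.64, adjusted p = 7.08e-05) and by 29.4% in ID4 (-0.50, adjusted p = 0.000954). ID2 was lower than ID4 by the same test (log2 difference -0.49, adjusted p = 0.00288), and this held when any 1 library was left out. It was also lower than ID1 and ID3, with ID1 0.35 above ID2 (adjusted p = 0.0263) and ID2 at -0.33 from ID3 (adjusted p = 0.0406). These rest on single libraries. The ID1 difference lost its call without ID1 library 3 (adjusted p = 0.127) or ID2 library 3 (0.129), and the ID3 difference without ID2 library 1 (0.0663), ID2 library 3 (0.155), ID3 library 1 (0.117) or ID3 library 3 (0.129).

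SPRY4, on chromosome 5 from 141689992 to 141706020, was counted at only 3 to 31 reads per library. Its level was 2.18, 1.91 and 1.09 CPM in GFP, 0.726, 1.12 and 0.671 in ID1, 1.24, 0.346 and 0.208 in ID2, 0.762, 0.711 and 0.972 in ID3 and 1.15, 1.71 and 0.454 in ID4. Only the ID3 libraries lay wholly below GFP, and the other groups overlapped it. The log2 fold changes were -1.07 in ID1 (adjusted p = 0.0933), -1.54 in ID2 (standard error 0.48, adjusted p = 0.0145), -1.11 in ID3 (adjusted p = 0.0676) and -0.69 in ID4 (adjusted p = 0.292, all edgeR). The fall in ID2 lost its call without GFP library 1 (adjusted p = 0.0726), ID2 library 2 (0.0682) or ID2 library 3 (0.0590). For the mean of the 4 ID groups the log2 fold change was -1.10 (adjusted p = 0.0159), which was lost without GFP library 1 (0.135) or GFP library 2 (0.0724). The ID3 difference in turn passed without GFP library 3 (0.0423), so the depth of SPRY4 does not settle which groups differ.

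SPRY1, on chromosome 4 from 124317950 to 124324915, was also near the limit of counting, at 6 to 22 reads per library. Its mean level was 1.17 ± 0.219 CPM (SD, n = 3) in GFP, 0.618 ± 0.0834 in ID1, 0.748 ± 0.312 in ID2, 1.24 ± 0.348 in ID3 and 0.661 ± 0.289 in ID4. The ID1 libraries were below all GFP libraries and the other groups overlapped them. The 95% intervals of the log2 fold change ran from -1.701 to -0.11 in ID1, from -1.37 to 0.17 in ID2, from -0.62 to 0.78 in ID3 and from -1.65 to -0.02 in ID4, and the adjusted p was 0.0970 or more in each. A difference was not detectable at this depth after adjustment.

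SPRED1, on chromosome 15 from 38545037 to 38649450, moved the other way. It was at 27.8, 27.3 and 24.9 CPM in GFP, 29.7, 31.1 and 32.2 in ID1, 35.6, 31.8 and 33.1 in ID2, 36.2, 30.5 and 33.1 in ID3 and 36.8, 32.6 and 35 in ID4. Every ID library was above every GFP library, the ID1 libraries were all below those of ID4, and the other pairs of ID groups overlapped. SPRED1 rose by 27.05% in ID2 (log2 fold change 0.35, standard error 0.08, adjusted p = 0.00182, edgeR), by 22.9% in ID3 (0.30, adjusted p = 0.00793) and by 30.5% in ID4 (0.38, adjusted p = 0.00138). In ID1 the log2 fold change was 0.20 (95% interval 0.03 to 0.37, adjusted p = 0.0838). The ID3 call was lost without ID3 library 1 (adjusted p = 0.0574). The genes around SPRED1 moved by as much. The median log2 fold change of the 387 other tested genes of chromosome 15 was 0.34 in ID1, 0.25 in ID2, 0.32 in ID3 and 0.37 in ID4, and that of the 68 within 5 Mb of SPRED1 was 0.33, 0.22, 0.29 and 0.33. After subtraction of the chromosome median SPRED1 stood at -0.14, 0.09, -0.03 and 0.01 in the 4 groups. The part of the chromosome-wide shift in the SPRED1 result was not tested beyond this subtraction, which has no test of its own.

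**Figure D2:**
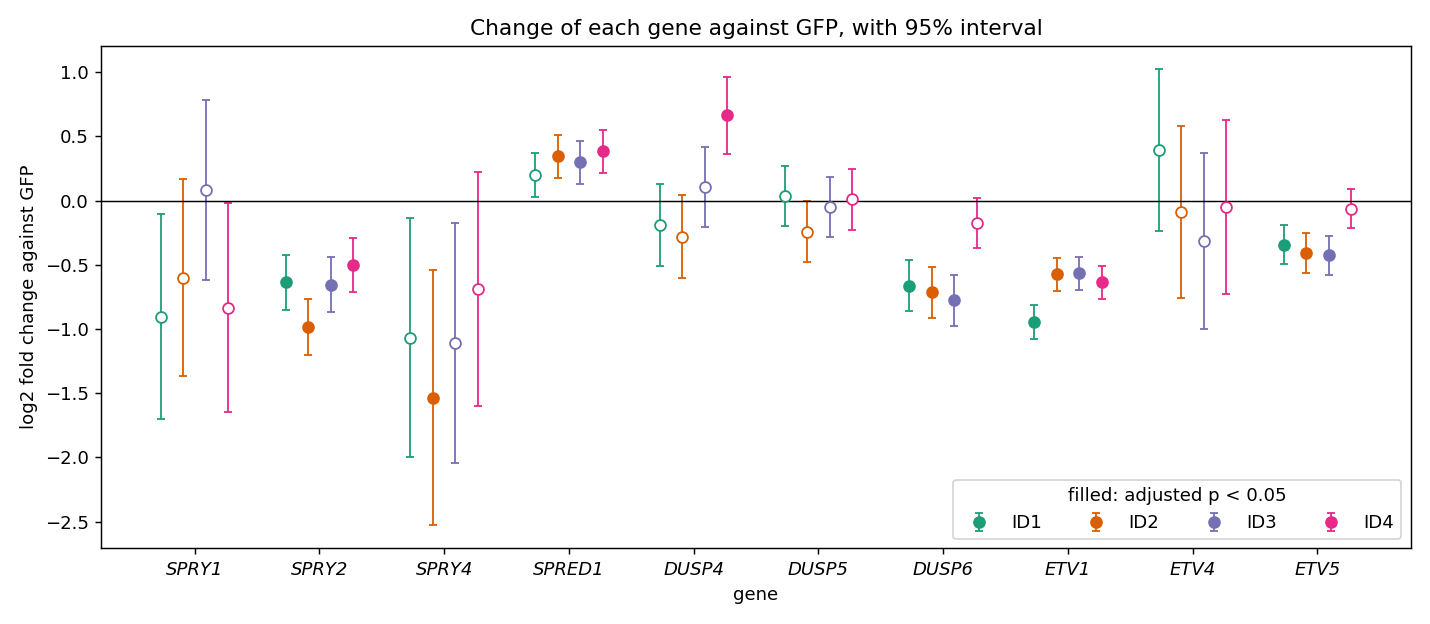
Log2 fold change against GFP (vertical axis) of the 10 genes (horizontal axis) in ID1, ID2, ID3 and ID4, with 95% intervals, filled where the adjusted p was under 0.05. SPRY2 and ETV1 are filled and below 0 in all 4 groups, DUSP6 and ETV5 in ID1, ID2 and ID3, and DUSP4 is filled only in ID4, at 0.66.

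DUSP6, the ERK phosphatase of the cytoplasm, lies on chromosome 12 from 89741012 to 89746278. Its level was 42.5, 42.7 and 49.0 CPM in GFP and 40.8, 39.4 and 38.9 in ID4. It was 28.1, 28.1 and 29.5 CPM in ID1, 29.01, 29.2 and 22.7 in ID2 and 23.6, 26.6 and 29.2 in ID3. The ID1, ID2 and ID3 libraries formed 1 range, of 22.7 to 29.5 CPM, well under that of ID4, and ID4 in turn was just under GFP without overlap. DUSP6 fell by 36.9% in ID1 (log2 fold change -0.66, standard error 0.10, adjusted p = 1.94e-05, edgeR), by 39.1% in ID2 (-0.72, adjusted p = 4.02e-06) and by 41.7% in ID3 (-0.78, adjusted p = 2.24e-06). In ID4 the log2 fold change was -0.17 with a 95% interval of -0.37 to 0.02 (adjusted p = 0.205). The difference between the ID groups was tested directly, and DUSP6 was lower than in ID4 by 0.49 (ID1, adjusted p = 0.00282), 0.54 (ID2, adjusted p = 0.000361) and 0.60 (ID3, adjusted p = 0.000266) on the log2 scale. All these calls held when any 1 library was left out. Its chromosome moved upward, with a median of 0.17, 0.20, 0.14 and 0.19 over 634 other genes in ID1, ID2, ID3 and ID4. The median of the 21 tested genes within 5 Mb was 0.24, 0.27, -0.23 and -0.05 in the same order. Each of these 21 had a higher log2 fold change than DUSP6 in ID1, ID2 and ID3, and 14 of them did in ID4.

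DUSP4, a nuclear phosphatase whose gene lies on chromosome 8 from 29190581 to 29208201, was the only one of the 10 that was raised in a single group. It was at 6.27, 7.46 and 7.36 CPM in GFP and 10.4, 11.5 and 11.6 in ID4. In ID1 it was 7.26, 4.78 and 6.49 CPM, in ID2 5.98, 6.16 and 4.98 and in ID3 7.69, 7.19 and 8.08. No library of another group reached the lowest ID4 library, and the ID2 libraries lay just under those of GFP. DUSP4 rose by 58.4% in ID4 against GFP (log2 fold change 0.66, standard error 0.15, adjusted p = 0.00191, edgeR), whereas the values in ID1 (-0.19), ID2 (-0.28) and ID3 (0.11) had an adjusted p of 0.174 or more. Against ID4, DUSP4 was lower by 0.85 in ID1 (adjusted p = 0.000671), by 0.94 in ID2 (8.28e-05) and by 0.56 in ID3 (0.0131). The ID3 difference narrowly missed the threshold without ID3 library 1 (adjusted p = 0.0507), ID3 library 2 (0.0579) or ID4 library 3 (0.0544). Of the 39 tested genes within 5 Mb, 3 had a higher log2 fold change than DUSP4 in ID4, and the chromosome median there was -0.09.

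DUSP5, the nuclear ERK phosphatase on chromosome 10 from 112257665 to 112271291, had nearly the same level in most groups. Its mean was 17.5 ± 1.43 CPM (SD, n = 3) in GFP, 18.2 ± 1.30 in ID1, 17.2 ± 1.36 in ID3 and 17.7 ± 0.151 in ID4, and 14.7 ± 2.80 in ID2, where the libraries read 17.9, 12.5 and 13.7. All groups overlapped GFP. The 95% interval of the log2 fold change was -0.20 to 0.27 in ID1, -0.48 to -0.01 in ID2 (adjusted p = 0.106, edgeR), -0.28 to 0.18 in ID3 and -0.23 to 0.24 in ID4. Without ID2 library 1, the highest of its group, the ID2 value was -0.40 with an adjusted p of 0.00761.

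ETV1, on chromosome 7 from 13930854 to 14031050, had the smallest adjusted p of the 10 genes in ID1, ID3 and ID4. Its level was 180, 168 and 156 CPM in GFP. It was 87.4, 89.8 and 86.99 CPM in ID1, 108, 107 and 120 in ID2, 118, 119 and 108 in ID3 and 111, 105 and 108 in ID4. No ID library overlapped GFP, and the ID1 libraries were also below all other ID libraries. ETV1 fell by 48.0% in ID1 (log2 fold change -0.94, standard error 0.06, adjusted p = 1.71e-10, edgeR), by 32.8% in ID2 (-0.57, adjusted p = 2.01e-07), by 32.4% in ID3 (-0.57, adjusted p = 4.15e-07) and by 35.7% in ID4 (-0.64, adjusted p = 1.19e-07). ID1 was lower than ID2 by 0.37 (adjusted p = 0.000239), than ID3 by 0.38 (0.000481) and than ID4 by 0.31 (0.00405) on the log2 scale. ID2, ID3 and ID4 did not differ from each other beyond their spread, with intervals of the difference from -0.14 to 0.12 for ID2 against ID3, from -0.07 to 0.19 for ID2 against ID4 and from -0.06 to 0.20 for ID3 against ID4. Each of the 11 tested genes within 5 Mb had a higher log2 fold change than ETV1 in all 4 groups.

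ETV5, on chromosome 3 from 185764103 to 185828107, was low in the same 3 groups as DUSP6. It was at 64.7, 61.1 and 64.3 CPM in GFP and 61.7, 60.5 and 59.9 in ID4. It was 50.0, 50.7 and 50.7 CPM in ID1, 43.0, 45.9 and 52.5 in ID2 and 46.4, 51.9 and 45.1 in ID3. ID4 overlapped GFP, and the 9 libraries of ID1, ID2 and ID3 were all below both. ETV5 fell by 21.1% in ID1 (log2 fold change -0.34, standard error 0.07, adjusted p = 0.0015, edgeR), by 24.7% in ID2 (-0.41, adjusted p = 0.000148) and by 25.6% in ID3 (-0.43, adjusted p = 0.00014). In ID4 it was -0.06 with a 95% interval of -0.22 to 0.09 (adjusted p = 0.600). Against ID4, ETV5 was lower by 0.34 in ID2 (adjusted p = 0.00205) and by 0.36 in ID3 (0.00276), and by 0.28 in ID1 (0.0291). The ID1 difference was lost when any 1 of the 6 libraries compared was left out, with the adjusted p between 0.0693 (without ID4 library 3) and 0.120 (without ID4 library 1), while its size stayed between 0.26 and 0.29 in favour of ID4.

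ETV4, on chromosome 17 from 41605212 to 41656988, was counted at 9 to 37 reads per library. Its mean was 1.85 ± 0.535 CPM (SD, n = 3) in GFP, 2.50 ± 0.340 in ID1, 1.73 ± 0.418 in ID2, 1.52 ± 0.364 in ID3 and 1.77 ± 0.876 in ID4, and every group overlapped GFP. The 95% intervals of the log2 fold change were wide, from -0.24 to 1.03 in ID1, -0.76 to 0.58 in ID2, -0.998 to 0.37 in ID3 and -0.73 to 0.63 in ID4, and those of ID2 and ID3 include the fall measured for ETV5 while that of ID1 does not.

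**Figure D3:**
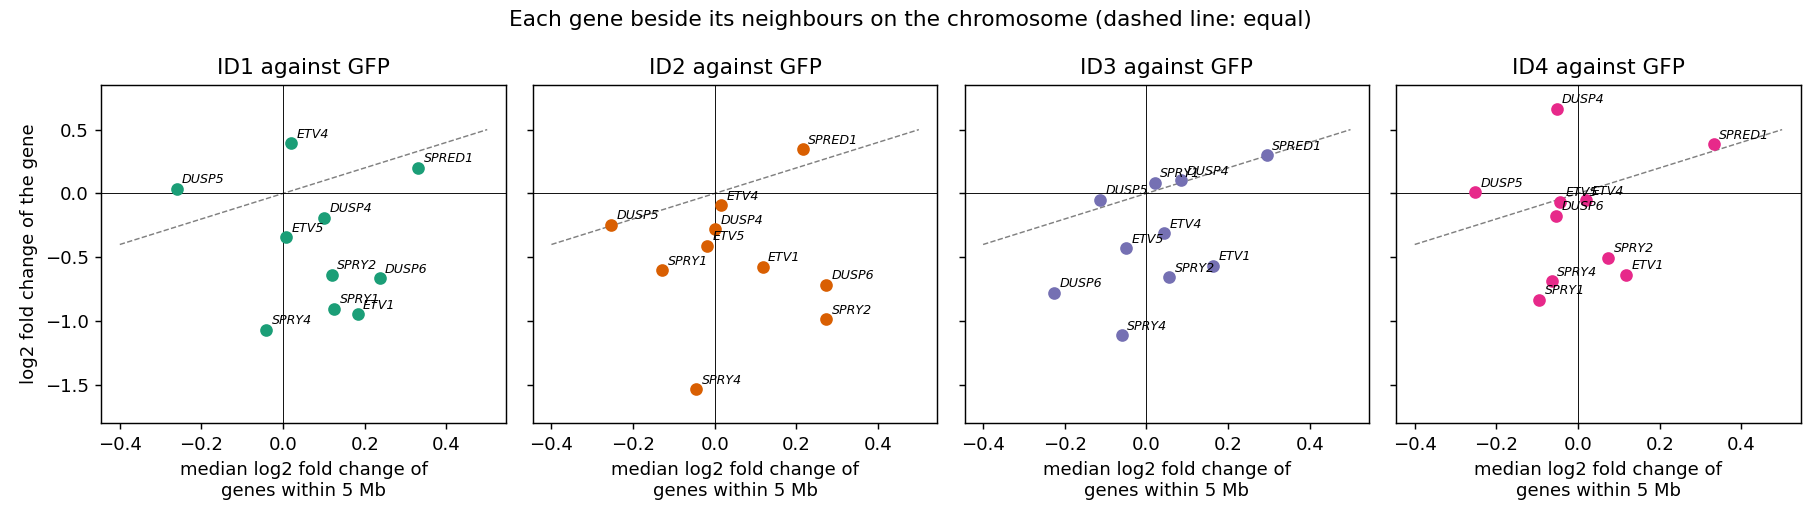
Log2 fold change of each gene (vertical axis) against the median log2 fold change of the other tested genes within 5 Mb (horizontal axis), 1 panel per ID group against GFP. SPRED1 lies on or near the dashed line of equal change, at 0.30 against 0.29 in ID3, while SPRY2, DUSP6 and ETV1 lie far below it in ID1, ID2 and ID3. So do 2 genes with few counts, SPRY4 in the same groups and SPRY1 in ID1.

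Among the ID groups, ID4 stood apart for DUSP4, DUSP6 and ETV5. The other calls against ID4 below are those of ETV1, lowest in ID1, and SPRY2, lowest in ID2. As given above, the ETV5 difference between ID1 and ID4 and the DUSP4 difference between ID3 and ID4 did not hold with every library left out. Between ID1 and ID4, 4 of the 10 genes passed (DUSP4, DUSP6, ETV1 and ETV5, all lower in ID1), where 4.87% of all tested genes passed and 2.56% were lower in ID1. ID2 against ID4 gave 4 (SPRY2, DUSP4, DUSP6 and ETV5, lower in ID2, against 18.6% of all genes, 9.07% lower in ID2) and ID3 against ID4 gave 3 (DUSP4, DUSP6 and ETV5, lower in ID3, against 11.3%, 5.77% lower). ID1 against ID2 gave 2 (18.6%), SPRY2 and ETV1. ID1 against ID3 gave 1 (9.18%), ETV1, and ID2 against ID3 gave 1 (15%), SPRY2. The pattern of DUSP6 and ETV5, lower than GFP in ID1, ID2 and ID3 and lower than ID4 in each by an adjusted p under 0.05, was met by 41 of the 12870 tested genes (0.319%). That of DUSP4, higher in ID4 than in each of the other 4 groups, was met by 60 (0.466%). The fall in all 4 ID groups that SPRY2 and ETV1 showed was met by 536 (4.16%). These patterns were read off the genes before they were counted, so the shares are descriptions.

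Across the 15 libraries, log2 CPM of DUSP6 and ETV5 had a Pearson r of 0.83, and so did SPRY2 and DUSP6. Libraries of a group share its treatment, and after subtraction of the group means DUSP6 and ETV5 gave -0.39 and SPRY2 and DUSP6 gave 0.62. The likeness of DUSP6 and ETV5 thus lay between groups and not between libraries of a group. SPRY2 and SPRED1 gave -0.68 over all libraries and 0.00 within groups. SPRY2 and ETV1, the genes that fell in all 4 groups, gave 0.61 over all libraries and -0.88 within groups. DUSP6 and ETV1 likewise gave 0.56 and -0.77, whereas ETV1 and ETV5 gave 0.59 and 0.65. The tested gene outside the 10 whose levels were most like those of each was FZD8 for SPRY2 (r = 0.97), HEBP1 for SPRED1 (0.93), ANKH for DUSP4 (0.91), HNRNPU for DUSP6 (0.97), LSM4 for ETV1 (0.95) and NSMCE4A for ETV5 (0.92), over the same 15 libraries. For the genes with few counts or little change these were SPPL3 for SPRY1 (0.83), PARP10 for SPRY4 (0.86), CUL3 for DUSP5 (0.84) and IKZF4 for ETV4 (0.82). Each of these r is the highest over all tested genes outside the 10, so a high value follows from the choice. Group means were not subtracted, and the values are descriptions.

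The rest of the pathway, 143 genes in 10 lists of which 113 were tested, moved in both directions. In ID1 26 were higher and 13 lower, in ID2 26 and 32, in ID3 23 and 20 and in ID4 22 and 17. These, and the counts of each list below, are to be read beside the shares of all tested genes, which were largest in ID2. They were 12.4% higher and 9.73% lower in ID1, 18.5% and 16.7% in ID2, 15.1% and 13.5% in ID3, and 12.1% and 9.51% in ID4. SPRY3, whose symbol stood in 2 entries with different counts, is uncertain and is not described.

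Upstream, among 12 tested growth factor ligands 3 were lower in ID1, 4 in ID2, 3 in ID3 and 4 in ID4, against 5, 3, 2 and 2 higher. TGFA, a ligand of EGFR, fell from 23.6 ± 3.02 CPM (SD, n = 3) in GFP to 11.2 ± 1.17 in ID1 (log2 fold change -1.10, adjusted p = 5.07e-07, edgeR), with -0.94 in ID2, -0.62 in ID3 and -0.49 in ID4. VEGFA, the endothelial growth factor, fell from 379 ± 26.5 CPM to between 163 and 199.6 in the 4 groups (log2 fold changes -1.21, -1.20, -1.11 and -0.93). Of 10 tested receptor tyrosine kinases 4 were higher and 1 lower in ID1, 2 and 2 in ID2, 4 and 2 in ID3 and 3 and 1 in ID4. PDGFRB rose from 14.7 ± 1.47 CPM in GFP to 35.3 ± 1.99 in ID3 (log2 fold change 1.24, adjusted p = 1.29e-09) and by 0.82, 0.73 and 0.86 in ID1, ID2 and ID4. PDGFRA fell by 2.11 in ID2 (adjusted p = 1.4e-05) and by 1.54 in ID3 (0.000317). Among 15 tested adaptors and RAS activators, 8 were higher and 3 lower in ID2, against 2 and 0 in ID1, 4 and 2 in ID3 and 3 and 0 in ID4.

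Of the 10 tested RAF, MEK, ERK and scaffold genes, 1 was higher in ID1, 1 in ID2, 2 in ID3 and 2 in ID4, and 1 was lower, in ID3. IQGAP1, a scaffold for these kinases, rose in all 4 groups by 0.26 to 0.36 (adjusted p = 0.000445 or less, edgeR) and lies on chromosome 15, which shifted by as much. Downstream of ERK, 4 of 7 tested kinases were lower and 1 higher in ID2, against 1 and 1 in ID1, 1 and 0 in ID3 and 1 and 1 in ID4. RPS6KA2, a ribosomal S6 kinase, rose by 0.81 in ID4 (adjusted p = 4.49e-06) and fell by 0.83 in ID2 (7.71e-06). Its rise of 0.39 in ID1 (adjusted p = 0.00854) was lost without GFP library 2 (0.0623).

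**Figure D4:**
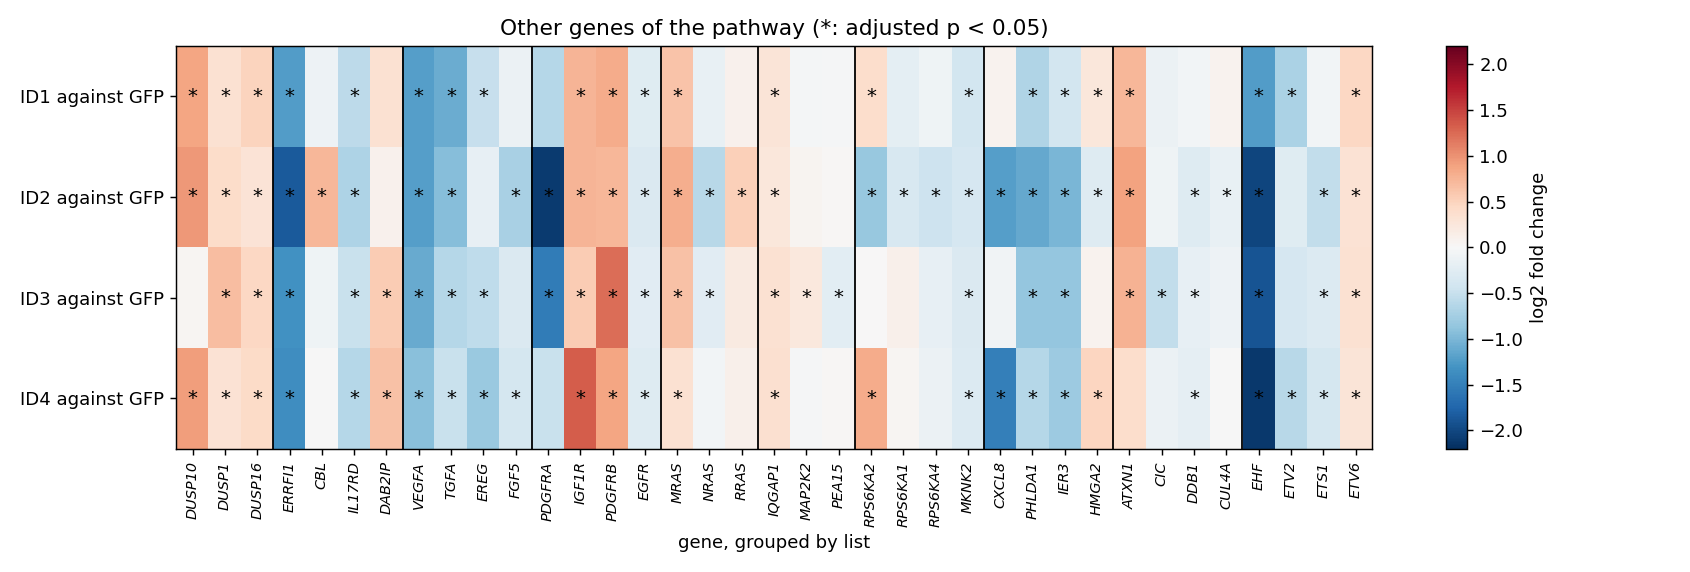
Log2 fold change against GFP (colour, blue lower and red higher) of 37 other pathway genes (columns, with black lines between lists) in the 4 ID groups (rows), with a star where the adjusted p was under 0.05. ERRFI1, VEGFA, TGFA, PHLDA1 and IER3 are blue with a star in all 4 rows, and PDGFRB is red with a star in all 4.

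Among 8 tested Sprouty, SPRED and DUSP relatives, 4 were higher and 1 lower in ID1, 3 and 1 in ID2, 3 and 0 in ID3 and 4 and 0 in ID4. The lower one was SPRY3 in both ID1 and ID2, counted by the first of its 2 entries, and is uncertain for the reason given. DUSP10, a phosphatase of stress kinases, rose by 0.86 in ID1, 0.95 in ID2 and 0.92 in ID4 and was at 0.05 in ID3 (adjusted p = 0.908, edgeR). DUSP16, another of that kind, rose by 0.48, 0.30, 0.45 and 0.42. It lies on chromosome 12, whose median log2 fold change was 0.17, 0.20, 0.14 and 0.19 in the same order. The ID2 call of DUSP16 was lost without GFP library 1 (adjusted p = 0.0978) and when only ID2 and GFP were fitted (0.0567). Of 15 other negative regulators, 3 were lower in ID1, 3 in ID2, 4 in ID3 and 2 in ID4, against 0, 3, 3 and 2 higher. ERRFI1, a feedback inhibitor of EGFR, fell from 42.8 ± 2.60 CPM (SD, n = 3) in GFP to 18.5 ± 1.997 in ID1, 11.7 ± 3.52 in ID2, 17.2 ± 1.70 in ID3 and 16.6 ± 2.26 in ID4, with log2 fold changes of -1.23, -1.85, -1.33 and -1.37 and an adjusted p of 7.61e-07 or less. IL17RD, a membrane antagonist of FGF signalling, fell by 0.58, 0.67, 0.50 and 0.64, and its ID3 call was lost without GFP library 3 (adjusted p = 0.0635) or ID3 library 3 (0.0522). Others of this list rose. CBL rose by 0.74 in ID2 (adjusted p = 5.02e-08, edgeR) and was at -0.11, -0.09 and -0.01 in ID1, ID3 and ID4. DAB2IP rose in ID3 and ID4, but both calls were lost without GFP library 2 (adjusted p = 0.184 and 0.115).

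Of 15 other genes transcribed in response to ERK, 5 were higher and 2 lower in ID1, 1 and 8 in ID2, 3 and 3 in ID3 and 3 and 5 in ID4. PHLDA1 fell from 1186 ± 75.4 CPM (SD, n = 3) in GFP to 537 ± 19.5 in ID2 (log2 fold change -1.13, adjusted p = 6.3e-13, edgeR) and by 0.66, 0.85 and 0.63 in ID1, ID3 and ID4. IER3, an early response gene, fell by 0.41, 1.01, 0.85 and 0.79. Its symbol stood in 6 entries, of which 1 had any counts and was tested. CXCL8, an interleukin whose transcription responds to several signals, fell by 1.21 in ID2 (adjusted p = 0.000393) and 1.5 in ID4 (0.00013) and was at 0.07 in ID1 and -0.08 in ID3. Of 7 tested genes of the CIC repressor complex and COP1 ligase, 1 was higher and 0 lower in ID1, 1 and 2 in ID2, 1 and 2 in ID3 and 0 and 1 in ID4. CIC itself was at -0.13, -0.09 and -0.14 in ID1, ID2 and ID4 and fell by 0.54 in ID3 (adjusted p = 0.000418), and ATXN1, a partner of CIC, rose by 0.73, 0.89 and 0.77 in ID1, ID2 and ID3 and was at 0.38 in ID4 (adjusted p = 0.165). Among 14 other ETS factors 3 were higher and 2 lower in ID1, 3 and 5 in ID2, 1 and 2 in ID3 and 2 and 3 in ID4. ETS1 fell by 0.54 in ID2 (adjusted p = 4.88e-05) and 0.38 in ID4 (0.003) and by 0.30 in ID3, a call that was lost without ID3 library 1 (0.0629), and was at -0.05 in ID1.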

How the data were processed

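RNA of U87MG cells was measured by 3′ tag sequencing (QuantSeq, total RNA) in 15 libraries, grouped by their labels. The deposited table of the authors holds raw read counts per gene and log2 values that its title calls quantile normalized, against hg19 (GRCh37); the submitters' processing notes name Bowtie2 and BWA without roles. The counting tool and its strand setting were not given in the sources used here, so reads of overlapping antisense genes cannot be told apart. Tags are not per length, so levels were not compared between genes, and whether molecular identifiers were used was not given.

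CPM is a count per 1000000 counts of its library. Genes with a mean deposited log2 value in the upper 50% (3.22 or more) were tested, 12870 in all, with edgeR 4.0.16 (TMM factors 0.978 to 1.03, quasi-likelihood test, 1 mean per group over all 15 libraries, R 4.3.3) and Benjamini-Hochberg adjustment, called at 0.05. The common dispersion was 0.00463. Alternatives were filterByExpr (13292 genes), no filter (20253), total counts without TMM, DESeq2 1.42.0, limma 3.58.1 on the deposited log2 values, a replicate block, the compared groups alone, each library left out and subtraction of the chromosome median. The fit was tested on simulated data. Positions are from GENCODE on GRCh37, matched by symbol. The genes named are the 10, from each list at most 4 of those passing the test over the 5 groups with the widest range of changes, and the most alike gene of each. The 10 genes, lists and tests were chosen with earlier results of these data known. Some genes of the lists are not reported here.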

Additional observations from a re-analysis of the deposited data

How the results depend on the processing

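Of 975 recomputed log2 fold changes for the 10 genes, 914 counted as the same, 26 lost a call, 6 gained one and 19 changed sign. The same meant an unchanged direction and side of the threshold. After subtraction of the chromosome median, which gives no p-value, it meant a shift under the SD within groups. The other 10 were subtracted values with a larger shift. Sign changes of subtracted values without a call were left out of the 19. These include SPRED1 in ID1 (0.20 to -0.14) and DUSP5 in ID3 (-0.05 to 0.04). The number of the 10 genes called between ID1 and ID2 was 1 in place of 2 when only the compared groups were fitted and 1 to 2 with a library left out. Between ID2 and ID3 it was 0 in place of 1 with no filter, with DESeq2, with the replicate block and with only the compared groups, and 0 to 1 with a library left out. The cause was not tested. SPRY4 passed in ID1 and ID3 as well with no filter (adjusted p = 0.0347 and 0.0222) and with only the compared groups (0.0321 and 0.0224). Subtraction of the chromosome median turned SPRED1 to -0.027 in ID3 and -0.019 for the mean of the ID groups, since the genes of chromosome 15 were shifted upward together. With 1 library left out, sign changes arose in log2 fold changes against GFP that had no call: SPRY1 in ID3 (-0.090 to 0.29), DUSP4 for the mean of the ID groups (-0.017 to 0.12), DUSP5 in ID1 (-0.0059 to 0.097), ID3 (-0.11 to 0.012) and ID4 (-0.035 to 0.066), and ETV4 in ID2 (-0.32 to 0.18), ID4 (-0.39 to 0.26) and for the mean (-0.14 to 0.25). Same-numbered libraries did not deviate together (30 pairs, r from -0.25 to 0.24, mean -0.02), so the numbers were not read as pairs; the replicate block changed no other count of called genes by more than 1.5 times. Counts of 3 to 37 reads limit SPRY1, SPRY4 and ETV4.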
